A study of Mus musculus with 24 samples.

Results

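The cytosolic ribosomal protein genes were followed through whole spinal cord of mice that carry a dominant mutation of Gars together with 2, 1 or 0 intact copies of Gcn2. They were taken as the protein-coding genes of GENCODE release M21 (mouse build GRCm38) whose symbol starts with Rpl or Rps followed by a digit, p or a, without the ribosomal S6 kinases. This gave 92 of 38924 genes in the files. Of these, 43 encode proteins of the large subunit, 31 of the small subunit and 3 of the stalk of the large subunit, 7 are paralogs of another member, and 7 are retrocopies that the release lists as protein-coding. The last, Rps19bp1, matches the rule by its name alone, since it encodes a binding protein of Rps19 and not a ribosomal protein.

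The series holds poly(A) RNA sequencing of spinal cord in 24 libraries from mice aged 8 weeks, 13 male and 11 female, all labelled with the strain background B6J;CASTxB6.129. Gars encodes glycyl-tRNA synthetase, and GarsP278KY is a dominant allele of the kind that causes an inherited neuropathy. Gcn2 (gene symbol Eif2ak4) is the kinase that starts the integrated stress response when tRNA lacks its amino acid or ribosomes stall. Each Gcn2 genotype was paired with Gars+/+ (wild type) and with GarsP278KY/+. For Gcn2+/+ there were 4 libraries of each, for Gcn2+/- again 4 of each, and for Gcn2-/- there were 3 and 5. GarsP278KY/+ mice are called Gars mutants here, and library numbers within a group only name the libraries. The labels do not state in words that each library is a separate animal, so p-values measure the spread between these libraries. Whole cord mixes many cell types, and in such tissue fewer cells of a type and less RNA per cell cannot be told apart.

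Each ribosome holds nearly every one of these proteins in a single copy, and cells make them in step. Most of their mRNAs start with a run of C and T, the terminal oligopyrimidine or TOP motif, through which mTORC1 and the RNA-binding protein Larp1 switch their translation as a block. Control therefore acts largely on translation, which mRNA levels do not show. The stalk proteins Rplp0, Rplp1 and Rplp2 sit where elongation factors bind, and they are known to activate Gcn2 on stalled ribosomes.

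Start sites are shown for 7 members as examples of the C and T run and of a start with a short one. The 6 ribosomal protein genes were picked, after the runs were seen, from the 14 members with a run of 10 or more bases. RefSeq promoter sequences of build GRCm38.p6 were matched by symbol for 65 members. Windows run from 10 bases before the start to 20 bases of the transcript start, 5′ to 3′, and capitals mark the longest run of C and T from 5 bases before the start to 15 bases from it.
Rpl7a, large subunit, chr2:26910797-26910826, plus strand: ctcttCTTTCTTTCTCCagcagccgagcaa
Rpl27a, large subunit, chr7:109519185-109519214, plus strand: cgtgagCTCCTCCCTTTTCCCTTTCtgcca
Rplp2, stalk, chr7:141447641-141447670, plus strand: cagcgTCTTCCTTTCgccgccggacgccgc
Rpl13a, large subunit, chr7:45128726-45128755, minus strand: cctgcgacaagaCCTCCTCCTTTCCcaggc
Rps6, small subunit, chr4:86857348-86857377, minus strand: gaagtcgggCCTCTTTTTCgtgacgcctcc
Rpl22l1, paralog, chr3:28805498-28805527, plus strand: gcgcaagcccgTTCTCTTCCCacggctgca
Rps19bp1, not a ribosomal protein, chr15:80264287-80264316, minus strand: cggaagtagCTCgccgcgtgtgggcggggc
The 6 examples have runs of 10 to 19 bases. Rps19bp1 has a run of 3, and 21 of the 65 members have a run of 3 or fewer, Rpl5, Rpl10a and Rps13 among them. Over the 65 members the median longest run was 5 bases, against 4 over the 27025 genes with a promoter entry. A run of 7 or more stood in 36.9% of the members and in 10.6% of all genes. The letters CCGGAA, searched on both strands from 250 bases before to 50 bases from the start, stood in 50.8% of the members' promoters and in 15.2% of all promoters. These are matches of letters only.

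Levels were compared between genes by the deposited TPM, the abundance of transcripts scaled to a fixed total, which is per length. Of the 92 members, 84 passed the filter on low counts, and only these were tested. Their mean TPM over the 24 libraries ran from 22.2 to 1462, with a median of 332. Rpl13a of the large subunit was highest with 1462 ± 218 TPM (SD, n = 24), followed by Rps24 (1434 ± 196), Rps29 (1432 ± 244) and the retrocopy Rps27rt (1339 ± 215). These top 4 lay closer together than their spread between libraries. The lowest 4 were Rps19bp1 with 22.2 ± 2.32 TPM, Rpl12 (22.5 ± 2.51), the paralog Rpl7l1 (23.998 ± 1.84) and Rpl31 (24.7 ± 2.35), which also do not differ beyond their spread.

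**Figure D1:**
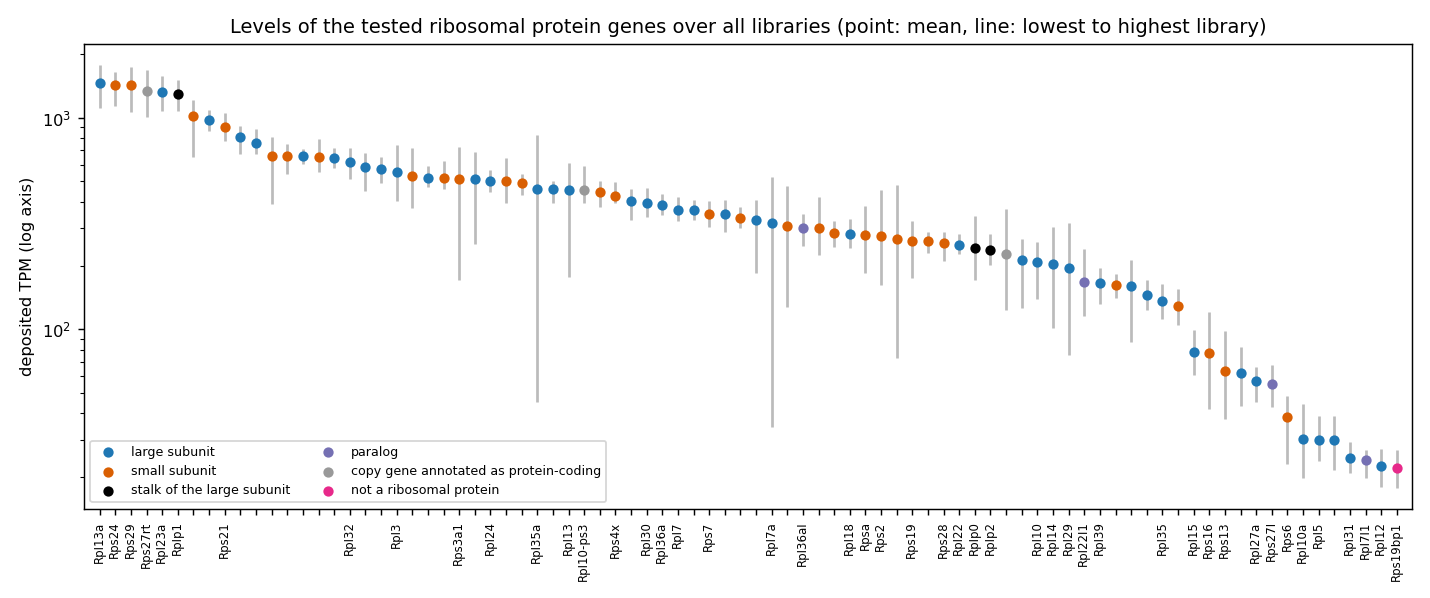
Mean deposited TPM of the 84 tested members (log axis, points coloured by kind) with a line from the lowest to the highest of the 24 libraries. Rpl13a stands at the top with 1462 TPM and Rps19bp1 at the bottom with 22.2, and the long lines of Rpl7a and Rpl35a show a level that differed widely between libraries; only members named in the text have their symbol on the axis.

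Some core members with a low TPM had copies with far higher counts. Rpl12 and Rpl31 proteins are part of every large subunit, yet 91.2% of the counts of Rpl12 and its near-identical copies, and 91.7% of those of Rpl31, were on the copies. A copy here is another annotated gene, such as a processed pseudogene, whose transcript is at least 90% identical to the member over at least 50% of the copy's length. With copies added, the mean TPM was 446 for Rpl12 and 1280 for Rpl31. In all, 766 such copies were found, 569 had a count, and together they held 21.9% of the counts of members and copies. In 14 families over 50% of the counts were on copies, and in 38 of the 84 families with a count it was under 1%.

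Rps6, the small subunit protein that S6 kinase phosphorylates, had the highest share on copies, 94.3%. It had a mean of 38.3 ± 6.27 TPM (SD, n = 24) by itself and 777 TPM with its copies. Its most counted copy is Rps6-ps4 on chromosome 2, and the coding sequences of both are the same over all 747 bases. A stretch of coding bases 21 to 80 is given for both, to show that reads from such a stretch fit either gene.
Rps6, chr4:86856786-86856845, minus strand: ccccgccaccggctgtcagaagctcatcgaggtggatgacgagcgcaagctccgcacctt
Rps6-ps4, chr2:75191743-75191802, minus strand: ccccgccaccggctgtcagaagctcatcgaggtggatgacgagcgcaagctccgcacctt
No capitals appear because no base differs. Where copies share reads like this, the separate values of gene and copy are uncertain, and an expected count divides such reads by estimate.

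The other side of the same issue is Rps27, a zinc finger protein of the small subunit. It was listed at 0 in all 24 libraries, while Rps27rt, its retrocopy, was among the 4 highest members. The files give Rps27 an effective length of 44.7 bases and Rps27rt one of 103 bases. Of the counts for Rpl10 and its retrocopy Rpl10-ps3, the first had 208.7 ± 33.97 TPM and the second 454 ± 45.8 TPM.

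The paralogs known for restricted expression were near absent. Rpl3l, known from heart and skeletal muscle, had 138 counts summed over the 24 libraries, against 220627 for Rpl3. Rpl39l had 12 counts against 21036 for Rpl39, and Rpl10l, known from testis, had 0, which allows up to 3 counts over the series. The broadly expressed paralogs were tested. Rpl22l1 had 167 ± 41.2 TPM against 251 ± 14.1 for Rpl22, its main copy. Rpl36al had 302 ± 27.4 TPM against 386 ± 25.8 for Rpl36a, and Rps27l, a p53-responsive paralog of Rps27, had 55.3 ± 6.32 TPM. Rpl7 had 367 ± 22.3 TPM against 23.998 for Rpl7l1. Rps4x, the X-linked small subunit gene, had 427 ± 25.1 TPM. The other members that did not pass were Rps27, Rpl36-ps4, Rpl9-ps1, Rpl9-ps6 and Rpl36a-ps1, with 0 to 21.3 counts summed over the series.

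As a block, the members held a similar share of the counts in all 6 groups. Their summed TPM ran from 31175.5 to 39895.1 over the 24 libraries. They took 0.774 to 0.912% of the counts of a library, whose totals ran from 19727467 to 32392753. The share was 0.813 ± 0.0369% (SD, n = 4) in Gcn2+/+ mice with wild-type Gars and 0.850 ± 0.0311% (n = 4) in their Gars mutants. It was 0.847 ± 0.0476% (n = 4) and 0.819 ± 0.0555% (n = 4) in Gcn2+/- mice with wild-type and mutant Gars, and 0.833 ± 0.0353% (n = 3) and 0.827 ± 0.0356% (n = 5) in Gcn2-/- mice. All 6 group ranges overlap. With copies added the shares ran from 0.970 to 1.18%.

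**Figure D2:**
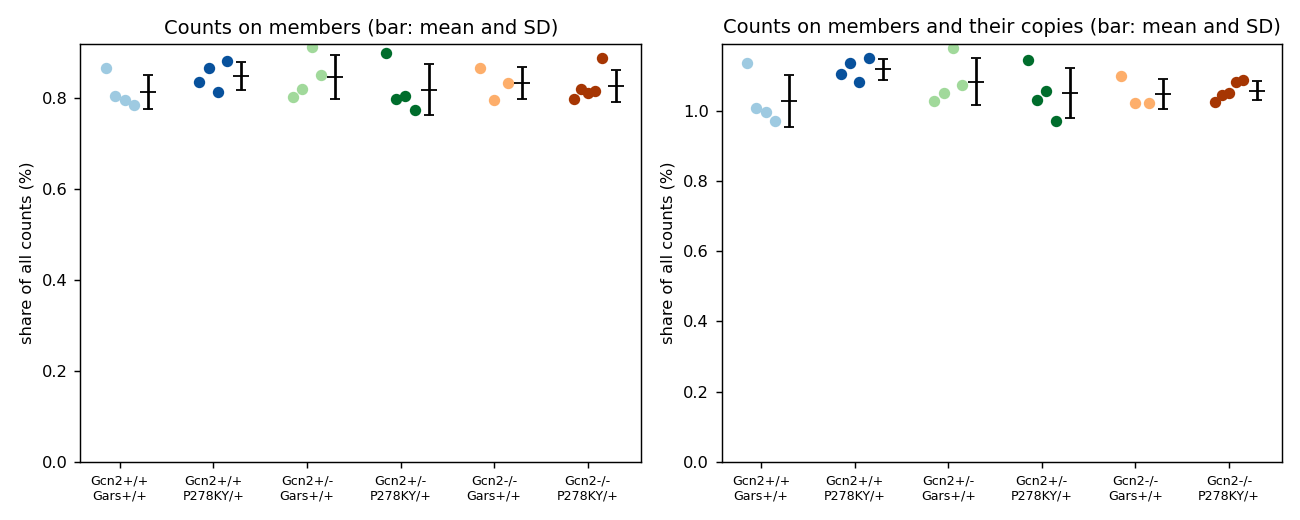
Share of all counts of a library on the members (left) and on members with their copies (right), in percent, by genotype, with 1 point a library and bars for mean and SD. The left panel runs from 0.774 to 0.912% and the ranges of all 6 groups overlap.

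In Gcn2+/+ mice, which ask what mutant Gars does with Gcn2 intact, no member passed the test. By edgeR's quasi-likelihood test, 0 of 84 had an adjusted p below 0.05, while 0.632% of the 17409 genes tested did. At an unadjusted p below 0.05 there were 8 (background 17.3%), and DESeq2 called 1, Rpl22l1 (background 3.72%). The median log2 change of the members was 0.063 against 0.012 over all genes, and 56 of 84 (66.7%) lay above 0, against 52.7% of all genes. The 95% interval stayed within a 1.5-fold change in either direction for 65 members and reached past it for 19. With counts summed over copies, 0 of 82 passed (background 0.699%) and the median was 0.076. With the GC slope described below as a covariate it was -0.038, so the sign of this median turns with that setting.

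Gcn2 loss can be read against both Gars genotypes. With wild-type Gars, 0 of 84 members passed edgeR's test (background 0.0287%). At an unadjusted p below 0.05 there were 3 (background 3.68%), DESeq2 called 0 (background 0.218%), and the median log2 change was 0.025. With mutant Gars, 0 passed edgeR's test (background 0.494%), 3 had an unadjusted p below 0.05 (background 10%) and DESeq2 called 0 (background 1.43%). The median was -0.035 against -0.0021 for all genes. In Gcn2-/- mice the Gars mutation gave 0 calls by edgeR (background 0.0115%), 2 members at an unadjusted p below 0.05 (background 4.35%) and 0 by DESeq2 (background 0.155%), with a median of -0.016. The difference of the Gars effect between Gcn2-/- and Gcn2+/+ mice had 0 calls by edgeR (background 0.0115%), 2 at an unadjusted p below 0.05 (background 4.93%) and 0 by DESeq2 (background 0.201%), with a median of -0.067. The comparisons share groups, so these values are not independent of each other.

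The comparisons that involve Gcn2+/- mice were similar save for one. In Gcn2+/- mice the Gars mutation gave 0 calls by edgeR (background 0.178%), 7 members at an unadjusted p below 0.05 (background 14.7%) and 1 call by DESeq2, Rpl27a (background 1.10%), with a median of -0.018. Loss of 1 Gcn2 copy gave 0 calls by edgeR with wild-type Gars (background 0%), 9 at an unadjusted p below 0.05 (background 17.2%) and a median of 0.045. DESeq2 called Rpl10a higher and Rpl22l1 and Rpl27a lower there, 3 in all (background 2.64%). With mutant Gars it gave 0 calls by edgeR (background 0%), 6 at an unadjusted p below 0.05 (background 10.9%) and 0 by DESeq2 (background 0.0919%), with a median of -0.041. Between females and males, 0 members passed edgeR's test (background 0.0804%), 0 had an unadjusted p below 0.05 (background 2.79%), DESeq2 called 0 (background 0.126%) and the median was -0.026.

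**Figure D3:**
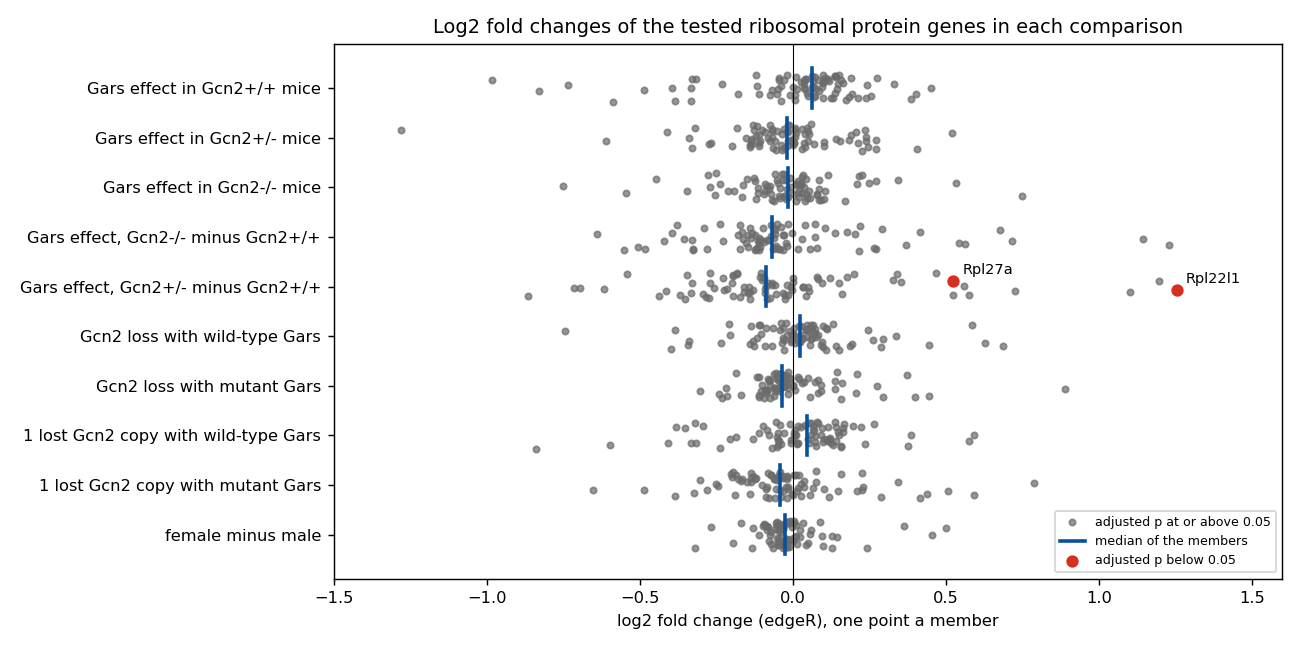
Log2 fold change of each of the 84 tested members in 10 comparisons, with 1 point a member, the median as a blue line and calls at an adjusted p below 0.05 in red. Medians lie between -0.088 and 0.063, and the red points are Rpl22l1 and Rpl27a in the difference of the Gars effect between Gcn2+/- and Gcn2+/+ mice.

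The exception was the difference of the Gars effect between Gcn2+/- and Gcn2+/+ mice. Here 2 of 84 members passed, both upward, where 2.45% of all genes were called upward and 3.70% in either direction. The members were therefore called no more often than genes at large. At an unadjusted p below 0.05 there were 18 (background 23.4%), and DESeq2 called 3 upward and 1 downward (background 9.74%). The median of the members was -0.088 against -0.027 over all genes. Both called members are described library by library, since edgeR called no other member in any comparison.

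Rpl22l1 is the paralog of Rpl22, a protein at the surface of the large subunit, and is known to be repressed by it. Its CPM (counts scaled to a fixed library total, with TMM factors) was 21.8, 32.4, 33.1 and 30.7 in the 4 libraries of Gcn2+/+ mice with wild-type Gars and 18.4, 19.8, 18.8 and 17.4 in their Gars mutants. These groups do not overlap, and the first library of the wild-type mice lies nearest the mutants. In Gcn2+/- mice it was 17.9, 14.5, 17.0 and 16.4 with wild-type Gars and 16.7, 26.5, 27.9 and 26.2 with mutant Gars, so 3 of the 4 mutants stood above all wild-type libraries and 1 among them.

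The log2 change of Rpl22l1 with mutant Gars was -0.74 ± 0.20 (SE, edgeR adjusted p = 0.0842) in Gcn2+/+ mice and 0.52 ± 0.19 (adjusted p = 0.254) in Gcn2+/- mice. The difference of these changes was 1.25 ± 0.27, with a 95% interval of 0.69 to 1.82 (adjusted p = 0.0399). In Gcn2-/- mice Rpl22l1 was 19.8, 34.1 and 31.0 CPM with wild-type Gars and 29.0, 15.1, 17.7, 19.99 and 18.3 CPM with mutant Gars, which overlap (log2 change -0.45 ± 0.20, adjusted p = 0.941). Rpl22 was not called in this comparison. Its group means lay between 72.8 and 79.7 CPM, and its log2 change with mutant Gars in Gcn2+/+ mice was -0.05 ± 0.07 (edgeR adjusted p = 0.777).

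Rpl27a encodes a core protein of the large subunit. In Gcn2+/+ mice it was 26.2, 31.6, 29.6 and 28.02 CPM with wild-type Gars and 28.9, 25.8, 26.3 and 25.2 CPM with mutant Gars, which overlap. In Gcn2+/- mice it was 23.0, 23.5, 23.4 and 22.9 CPM with wild-type Gars and 26.9, 33.5, 31.3 and 31.1 CPM with mutant Gars, so every mutant library stood above every wild-type one. The log2 change was 0.41 ± 0.10 in Gcn2+/- mice (edgeR adjusted p = 0.0912), and its difference from that in Gcn2+/+ mice was 0.52 ± 0.13 with a 95% interval of 0.25 to 0.80 (adjusted p = 0.0428).

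Both calls moved with a property of the libraries. The GC slope of a library is how far genes rise or fall, on the log2 scale, per 10 points of GC content of their transcripts, relative to the mean of all libraries. It was negative, from -0.161 to -0.0491, in 9 libraries and positive, from 0.0082 to 0.114, in 15. The negative ones were 3 of 4 from Gcn2+/+ mice with wild-type Gars, 0 of 4 of their Gars mutants, 0 of 4 from Gcn2+/- mice with wild-type Gars, 3 of 4 of their Gars mutants, 2 of 3 from Gcn2-/- mice with wild-type Gars and 1 of 5 of their Gars mutants. The labels name 2 library kits without saying which library had which, so whether the kit goes with the slope was not tested.

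Rpl22l1, with a GC content of 40.9%, was at 26.2 to 34.1 CPM in the 9 libraries with a negative slope and at 14.5 to 21.8 CPM in the 15 others. Rpl27a was at 28.02 to 33.5 CPM in the 9 and at 21.8 to 28.9 CPM in the 15. With the slope as a covariate, the difference of the Gars effect between Gcn2+/- and Gcn2+/+ mice was 0.16 ± 0.18 for Rpl22l1 (edgeR adjusted p = 0.963) and 0.07 ± 0.13 for Rpl27a (adjusted p = 0.976), and 0 members were called, as were 0 of all genes. The slope was taken from other genes of these same libraries, and its sign went largely with the groups compared. This fit therefore cannot tell the slope from the genotypes. The mean log2 CPM of the mitochondrially encoded genes ran from 11.6 to 11.95 in the 9 libraries and from 10.98 to 11.6 in the 15. The summed TPM of the members ran from 31175.5 to 33490.3 in the 9 and from 33919.4 to 39895.1 in the 15, without overlap.

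**Figure D4:**
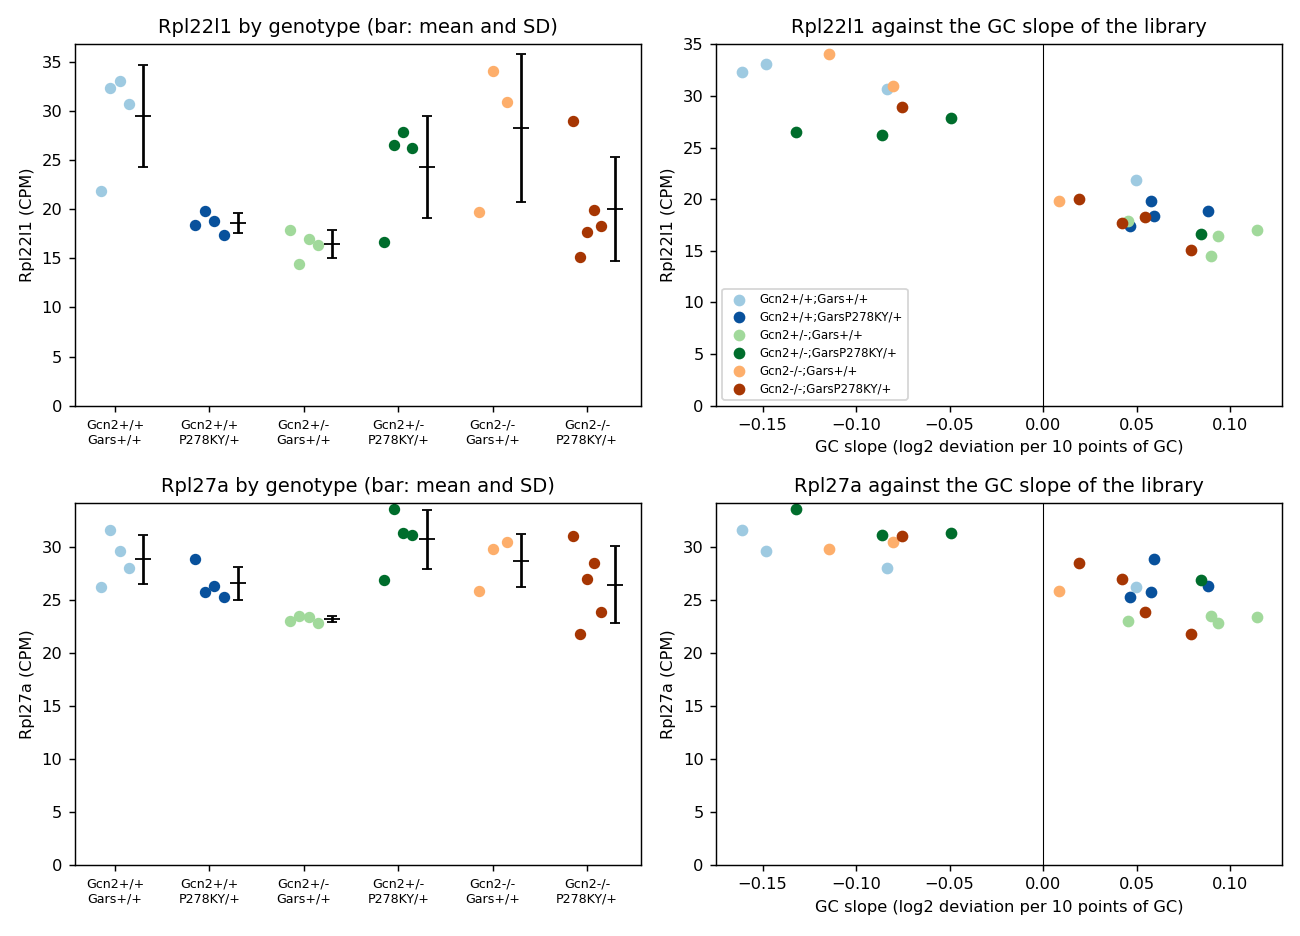
CPM of Rpl22l1 (top) and Rpl27a (bottom) by genotype with mean and SD (left), and against the GC slope of the library (right), with 1 point a library. The 9 libraries left of 0 hold Rpl22l1 at 26.2 to 34.1 CPM and the 15 right of 0 at 14.5 to 21.8 CPM.

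The call of Rpl27a also depended on its copies, which held 83.4% of the counts of its family. The copies ran opposite to the gene, at 110 to 126 CPM in the 9 libraries with a negative slope and at 138 to 161 CPM in the 15 others. Summed over copies, the difference for Rpl27a turned to -0.32 ± 0.12 (edgeR adjusted p = 0.0934). Rpl22l1 kept its value of 1.25 ± 0.27 (adjusted p = 0.0383), and Rpsa (-0.42 ± 0.10, adjusted p = 0.0392) and Rpl13 (-0.33 ± 0.09, adjusted p = 0.0492) were called, with a background of 3.97%. Genes of Schwann cells and nerve roots differed between the same groups. The summed CPM of the 15 genes on that list was 827 to 1277 in Gcn2+/+ mice with wild-type Gars, 891 to 3977 in their Gars mutants, 892 to 3544 in Gcn2+/- mice with wild-type Gars and 826 to 1238 in their Gars mutants. Mal on this list is also on the list of oligodendrocyte genes, so the sums are not of nerve roots alone. No gene of the list was at 0 in any of these groups, and 9 of the 15 fell in the difference (median log2 value -3.47). Of all 17409 genes 217 fell there, and 3.70% were called in either direction. Of 12 tested meningeal and fibroblast genes 3 fell (median -4.04). Without the 5 libraries highest in the nerve root genes, 0 members were called and 0 of all 17434 genes tested, with differences of 1.35 for Rpl22l1 and 0.47 for Rpl27a. Of the 5, libraries 2 and 4 were Gcn2+/+ Gars mutants, and 1 and 3 were Gcn2+/- mice with wild-type Gars. The last was library 4 of the Gcn2+/- Gars mutants. These groups were thus smaller than in the main fit, so the loss of calls cannot be told apart from the loss of libraries.

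Whether these calls passed depended on single libraries, while the differences themselves moved less. Without 1 library the difference ran from 1.18 to 1.39 for Rpl22l1 and from 0.48 to 0.59 for Rpl27a. Without 1 library the count of members called ranged from 0 to 10, and it was 10 without library 1 of Gcn2+/+ mice with wild-type Gars, the one of that group with a positive slope. The 4 called upward there were Rpl22l1, Rpl27a, Rpl15 and Rpl39, and Rpl23a, Rps24, Rpl30, Rps27rt and Rpl32 were among the 6 called downward, with a background of 10.3%. Without library 1 of the Gcn2+/- Gars mutants, the one of that group with a positive slope, 4 were called downward, Rpl10a, Rpl32 and Rps16 among them, and 2 upward, with a background of 9.17%. No member was called upward without any 1 of library 2, 3 or 4 of Gcn2+/+ mice with wild-type Gars, 2, 3 or 4 of their Gars mutants, 2, 3 or 4 of the Gcn2+/- Gars mutants, and 3 or 4 of Gcn2+/- mice with wild-type Gars, and 1 was called without library 2 of the latter. With any 1 of these 11 libraries left out and 0 members called upward, 0 to 0.443% of all genes were called, so the calls of other genes were lost with those of the members. Without library 1 of Gcn2+/+ mice with wild-type Gars, Rpl22l1 was also called lower in the Gars mutants of that genotype (background 3.45%), and Rpl22l1 and Rpl27a lower with 1 Gcn2 copy lost beside wild-type Gars (background 3.82%). Without library 1 of the Gcn2+/- Gars mutants, Rpl27a was called higher in the mutants of that genotype (background 0.379%).

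The members with the smallest p in the other comparisons were largely the same few names. In Gcn2+/+ mice they were Rpl22l1, Rpl5 (log2 change 0.28 ± 0.10, edgeR adjusted p = 0.182), Rpl12 (0.24 ± 0.09, adjusted p = 0.190) and Rpl10a (0.39 ± 0.16, adjusted p = 0.223). Rpl5 carries 5S RNA into the large subunit and can stabilise p53. It was at 16.0 to 21.1 CPM with wild-type Gars and at 20.02 to 24.4 CPM in the mutants, which overlap, and 88.3% of its family's counts were on copies. Summed over copies its log2 change was -0.064, against 0.28 for its own counts.

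Rpl10a is part of the L1 stalk, which guides tRNA out of the ribosome. It was at 7.11 to 9.17 CPM in Gcn2+/+ mice with wild-type Gars and at 8.87 to 12.6 CPM in their mutants. With wild-type Gars it was at 11.03 to 12.1 CPM in Gcn2-/- mice, above all 4 Gcn2+/+ libraries (log2 change 0.59 ± 0.17, edgeR adjusted p = 0.719). With 1 Gcn2 copy lost it was at 9.40 to 13.4 CPM (0.59 ± 0.16, adjusted p = 0.138). Its difference of the Gars effect was -0.64 ± 0.23 for Gcn2-/- against Gcn2+/+ mice (adjusted p = 0.937) and -0.72 ± 0.22 for Gcn2+/- against Gcn2+/+ mice (adjusted p = 0.0653). Both of these use the same low Gcn2+/+ libraries with wild-type Gars. Copies held 86.0% of the counts of its family. Summed over copies Rpl10a was at 66.6 to 70.8 CPM in Gcn2-/- and at 64.5 to 73.0 CPM in Gcn2+/+ mice with wild-type Gars, which overlap (log2 change 0.033 ± 0.063). The summed differences of the Gars effect were -0.16 ± 0.09 and -0.17 ± 0.08 (edgeR adjusted p = 0.940 and 0.216), and the summed change for 1 lost Gcn2 copy was 0.091 ± 0.057.

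In Gcn2-/- mice the smallest p belonged to Rps13 (0.53 ± 0.22, edgeR adjusted p = 0.941), a small subunit protein whose copies held 82.3% of its family's counts, and whose change was -0.012 when these were added. Rpl10-ps3 (-0.17 ± 0.09) and Rps28 (-0.16 ± 0.09) had the same adjusted p. With Gcn2 lost in Gars mutants, Rpl5 (-0.23 ± 0.10, adjusted p = 0.394), Rpl12 (-0.18 ± 0.09, adjusted p = 0.477), Rpl10-ps3 (-0.17 ± 0.08, adjusted p = 0.484) and Rpl18 (-0.11 ± 0.06, adjusted p = 0.553) led. With Gcn2 lost beside wild-type Gars, Rpl7l1 (0.19 ± 0.09), Rps7 (0.15 ± 0.07) and Rpl24 (0.11 ± 0.06) followed Rpl10a. None of these passed the test.

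The stalk proteins, named here for their known link to Gcn2 after their values were seen, gave no call in any comparison. Rplp1 was at 208, 159, 165 and 155 CPM in Gcn2+/+ mice with wild-type Gars and at 179, 182, 182 and 204 CPM in their Gars mutants, which overlap (log2 change 0.14 ± 0.09, 95% interval -0.06 to 0.33, edgeR adjusted p = 0.480). Rplp2 had group means between 54.0 and 57.5 CPM, and its change there was 0.10 ± 0.07 (interval -0.06 to 0.25). Rplp0 spread more, with 98.4 to 188 CPM in the Gcn2+/+ Gars mutants and a change of -0.04 ± 0.17, which turned to 0.12 ± 0.09 with copies summed. Its lowest library there, at 98.4 CPM, had 60.8 CPM on copies. With Gcn2 lost beside mutant Gars, the changes were 0.05 ± 0.16 for Rplp0, -0.08 ± 0.09 for Rplp1 and -0.03 ± 0.07 for Rplp2.

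The widest spread among the members ran within genotype groups. Some members stood at 2 or 3 separate levels across the 24 libraries, and these were picked out after their values were seen. The ratio of the highest to the lowest library exceeded 2 in 20 of the 84 tested members and exceeded 4 in 4, among them Rpl7a (16.9), Rpl35a (14.2) and Rps3a1 (4.03). The median ratio was 1.41. With copies added, 2 of 82 families exceeded 2 and 0 exceeded 4.

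Rpl7a, a large subunit protein known as a partner in cancer gene fusions, gave 178.7, 166, 71.9 and 168 CPM in Gcn2+/+ mice with wild-type Gars and 11.5, 81.3, 12.6 and 183 CPM in their Gars mutants. It gave 172, 178, 11.5 and 80.8 CPM in Gcn2+/- mice with wild-type Gars and 191, 76.7, 166 and 73.3 CPM in their mutants. In Gcn2-/- mice it gave 194, 73.4 and 77.4 CPM with wild-type Gars and 166, 178, 78.7, 178 and 82.5 CPM with mutant Gars. Values fell at 11.5 to 12.6, at 71.9 to 82.5 and at 166 to 194 CPM, and every group holds at least 2 of these levels. The lowest level occurred in 3 libraries, of which 2 were Gcn2+/+ Gars mutants and 1 was a Gcn2+/- mouse with wild-type Gars.

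The counts on the copies of Rpl7a ran the other way. Where the gene was at 11.5 CPM in library 1 of the Gcn2+/+ Gars mutants, its copies were at 114 CPM, and where it was at 183 CPM in library 4, they were at 2.95 CPM. Gene and copies together ranged from 126 to 196 CPM over the 24 libraries. This sum was 126 to 147 CPM at the lowest level of the gene and 168 to 196 CPM at the highest. Most of the copy counts were on Rpl7a-ps11, a processed pseudogene on the X chromosome. Its sequence differs from the coding bases of Rpl7a at 2 of 798. The stretch of coding bases 137 to 196 that holds one of these is printed for gene and copy, with the differing base in capitals.
Rpl7a, chr2:26911434-26911493, plus strand: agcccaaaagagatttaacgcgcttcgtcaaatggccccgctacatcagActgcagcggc
Rpl7a-ps11, chrX:166854347-166854406, plus strand: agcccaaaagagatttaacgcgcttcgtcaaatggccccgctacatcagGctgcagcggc

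Rpl35a, a large subunit protein mutated in some families with Diamond-Blackfan anaemia, showed the same. It was at 61.4, 95.6, 45.9 and 91.7 CPM in Gcn2+/+ mice with wild-type Gars and at 103, 49.6, 49.7 and 7.62 CPM in their Gars mutants. In Gcn2+/- mice it was at 46.0, 47.0, 108.5 and 104 CPM with wild-type Gars and at 10.2, 8.35, 47.6 and 85.6 CPM with mutant Gars, and in Gcn2-/- mice at 52.5, 93.1 and 94.5 CPM and at 45.2, 46.2, 102, 50.6 and 106 CPM. The 3 libraries at 7.62 to 10.2 CPM were all Gars mutants but from 2 Gcn2 genotypes, and they were not the libraries at the lowest level of Rpl7a. The sum with copies ranged from 86.0 to 115 CPM. Its main copy, Gm10243 on chromosome 6, differs at 1 of 330 coding bases, which lies in the stretch of coding bases 107 to 166. The stretch of the gene spans an intron.
Rpl35a, chr16:33057485-33058680, plus strand: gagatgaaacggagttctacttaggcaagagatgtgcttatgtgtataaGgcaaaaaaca
Gm10243, chr6:48523624-48523683, plus strand: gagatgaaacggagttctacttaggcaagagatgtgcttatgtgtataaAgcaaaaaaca

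Rps3a1, a small subunit protein, took levels of 70.9 to 80.1, of 150 to 178 and of 237 to 286 CPM. It was at 80.1 CPM in library 4 of the Gcn2-/- Gars mutants, where its copies held 165 CPM, and at 70.9 CPM in library 3 of the Gcn2+/- Gars mutants, where they held 168 CPM. In 13 libraries the copies were below 1 CPM. The sum ranged from 230 to 286 CPM. The main copy Rps3a2 on chromosome 14 differs at 4 of 792 coding bases, and coding bases 619 to 678 hold 2 of them in capitals.
Rps3a1, chr3:86138106-86138537, minus strand, across an intron: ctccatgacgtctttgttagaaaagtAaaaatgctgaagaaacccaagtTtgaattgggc
Rps3a2, chr14:88123131-88123190, minus strand: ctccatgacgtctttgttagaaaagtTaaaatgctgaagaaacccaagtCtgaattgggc

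Other members stepped in the same way. Rpl13 of the large subunit ran from 56.1 to 177 CPM and its sum with copies from 149 to 204 CPM. Rpl29, a large subunit protein with a heparin-binding tail, ran from 19.9 to 79.3 CPM, and its sum only from 70.9 to 85.9 CPM. Rps2 ran from 71.4 to 184 CPM and its sum from 146 to 186 CPM.

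Rpl29, Rpl14 and Rpsa, the last also known as the laminin receptor, all lie on chromosome 9, and most of their low libraries coincided. Of the 5 libraries lowest in each, 4 were shared by all 3 genes. These were libraries 1 and 3 of the Gcn2+/+ Gars mutants, library 3 of the Gcn2-/- Gars mutants and library 3 of Gcn2+/- mice with wild-type Gars. In these 4, Rpl29 was at 19.9 to 25.9 CPM and Rpl14 at 38.3 to 43.8 CPM. Low libraries were shared beyond chromosome 9 too. Rpl7a on chromosome 2 was at its lowest level, 11.5 to 12.6 CPM, in these libraries save 1. The exception was library 3 of the Gcn2-/- Gars mutants, with 78.7 CPM. The library lowest in Rpsa (174 CPM), library 2 of the Gcn2+/- Gars mutants, had Rpl29 at 48.1 CPM. The labels give the same mixed strain background for all libraries, and whether ancestry at these genes differs between animals was not tested.

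**Figure D5:**
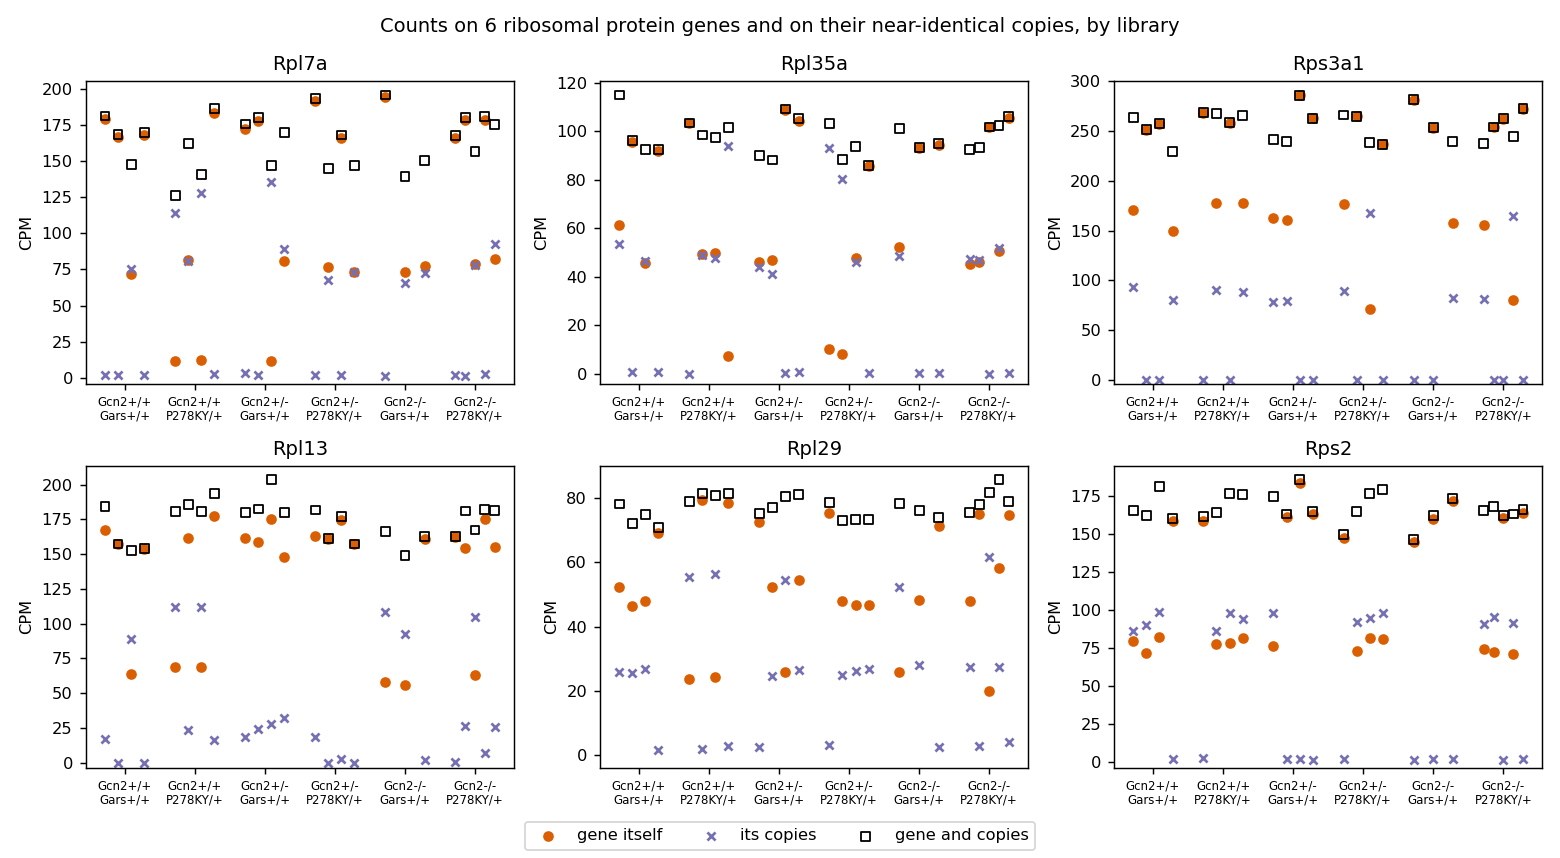
CPM of 6 members (orange points), of their near-identical copies (purple crosses) and of both together (open squares) in each library, by genotype. Gene and copies run opposite to each other in 2 or 3 levels within most groups, while the squares vary less. They lie between 70.9 and 85.9 CPM for Rpl29 and, more widely, between 126 and 196 CPM for Rpl7a.

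The log2 changes of stepped members had wide errors. In Gcn2+/+ mice the log2 change of Rpl7a with mutant Gars was -0.98 ± 0.87 (edgeR adjusted p = 0.603) by its own counts and -0.12 ± 0.13 (adjusted p = 0.673) with copies added. That of Rpl35a was -0.59 ± 0.67 by its own counts and 0.02 ± 0.08 with copies. Over all tested members the median standard deviation within groups was 0.13 on the log2 scale, and 0.10 with copies added, with highest values of 1.22 and 0.31.

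Genes next to the members in the same pathway were described by counts alone. Fau and Rack1, ribosomal proteins whose symbols fall outside the rule, passed the test in none of the 10 comparisons. Of 18 elongation factor and other TOP mRNAs, 0 passed in Gcn2+/+ mice, with a median log2 change of 0.065 beside the 0.063 of the members. In the difference of the Gars effect between both genotypes (Gcn2+/- less Gcn2+/+) 1 was lower, Eif3f, a subunit of the initiation factor that binds the small subunit (-0.38 ± 0.09, edgeR adjusted p = 0.0399). Of 50 ribosome biogenesis factors 0 passed in Gcn2+/+ mice (median 0.029). In the same difference 1 was higher, Ltn1 (0.45 ± 0.11, edgeR adjusted p = 0.0408). Ltn1 is the ubiquitin ligase that marks chains on stalled ribosomes and is also on the list of 22 ribosome rescue genes. Of all genes, 3.70% were called in this difference, and 0% with the GC slope as a covariate.

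Of 20 regulators of ribosomal protein mRNAs, 0 passed in Gcn2+/+ mice (median 0.023). Larp1 was at -0.02 ± 0.05, and Eif4ebp1, which restrains cap-dependent translation below mTORC1, was at 1.15 ± 0.41 (edgeR adjusted p = 0.167). Of 77 mitochondrial ribosomal proteins, a separate set that serves the ribosomes of mitochondria, 0 passed there (median 0.013). In the difference of Gcn2+/- from Gcn2+/+ mice, 1 of the regulators and 1 of the mitochondrial ribosomal proteins were lower (background 3.70%). With Gcn2 lost beside mutant Gars, 1 mitochondrial ribosomal protein was lower (background 0.494%).

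The genes whose levels followed the mean of the tested members most closely were sought among 10235 other genes of at least 10 CPM, by the Pearson correlation of log2 CPM less the group mean over the 24 libraries. They were Rab27a (0.80), Arhgef40 (0.78), Tmem43 (0.78), Cers4 (0.76) and Bcorl1 (0.76). The libraries share depth and GC slope across all genes, so these values are a description. Of 14 motor neuron genes, 11 fell with mutant Gars in Gcn2+/+ mice (median -0.65, background 0.632% in either direction). In Gcn2+/- mice 8 fell (median -0.48, background 0.178%), and in Gcn2-/- mice 2 fell (median -0.063, background 0.0115%). Eif2ak4 itself checked the labels, with 28.9 to 34.4 CPM in Gcn2+/+ mice with wild-type Gars and 11.4 to 15.01 CPM in Gcn2-/- mice with wild-type Gars. No member lies within 20 Mb of Gars or Eif2ak4, although Rpl12, Rpl35, Rpl7a and Rps21 share chromosome 2 with Eif2ak4 and Rpl32 shares chromosome 6 with Gars. The copies were not part of this check. Gm10243, the main copy of Rpl35a, is on chromosome 6 with Gars, and Rps6-ps4 is on chromosome 2 with Eif2ak4. Whether DNA linked to either allele bears on the counts of such copies and their members was not tested.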

How the data were processed

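Whole spinal cord RNA in 24 libraries was sequenced as 75-base paired reads, per the labels' protocols. The deposited expected counts and TPM per gene, with transcript lengths as other values, come from the authors. The submitters' processing notes name Bowtie2 2.2.0 and RSEM 1.2.12. RSEM divides reads that match several genes by estimate. Neither genome build nor annotation is given in the sources used here. TPM served for levels between genes.

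Expected counts were rounded, filtered with filterByExpr by genotype (17409 genes left), scaled by TMM and fitted in edgeR 4.0.16 under R 4.3.3 with 6 genotype groups and sex, using all 24 libraries. Tests were two-sided quasi-likelihood F tests with p-values adjusted by Benjamini-Hochberg across every tested gene and called below 0.05. Near-identical copies were found with blastn 2.17.0 among M21 transcripts. The fit was also run on simulated independent counts, which held no GC slope, no likeness by title number and no stepped members. That run therefore says nothing about these features. Alternatives were DESeq2 1.42.0, RLE scaling, TMM without the members, no filter, no sex term, title numbers as a block or in 2 sets, fewer groups and each library left out. The GC slope, summed copies and the omission of 5 libraries were added after seeing the data. Members and lists were chosen with earlier results of these data known. Named members are the called ones, members up to 4 in all with the smallest p in each comparison, the 4 highest and 4 lowest in TPM, the paralogs with their main copies, and Rps19bp1. Some genes are not reported here.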

Additional observations from a re-analysis of the deposited data

Results flagged for a closer look

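The Gars effect differed between Gcn2+/- and Gcn2+/+ mice in the test of that difference for Rpl22l1, by 1.25 on the log2 scale, and for Rpl27a, by 0.52. These 2 of 84 members are near the 2.45% of all genes that were called upward. With the GC slope as a covariate, 0 members and 0 of all 17409 genes were called. With copies summed, the difference for Rpl27a changed sign.

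For members printed library by library, their sums with copies and the members' share of counts, 140 groups of 4 or 5 libraries were examined. In these, 18 values stood apart from their group by Dixon's test, at a level that chance reaches in about 1 in 20 groups. Many groups came from stepped members that were picked after their values were seen. A gene and its sum also share libraries, so the 18 cannot be set against that rate. Among genes with few steps, Rpl22l1 was lowest at 16.7 CPM in library 1 of the Gcn2+/- Gars mutants, Rplp1 highest at 204 CPM in library 4 of the Gcn2+/+ Gars mutants, and Rpl10a highest at 9.17 CPM in library 4 of Gcn2+/+ mice with wild-type Gars and at 11.2 CPM in library 1 of the Gcn2+/- Gars mutants. The share of counts on members was highest, at 0.889%, in library 5 of the Gcn2-/- Gars mutants.

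Stepped members gave the rest. In Gcn2+/+ mice with wild-type Gars, Rpl7a was lowest at 71.9 CPM and Rpl13 at 63.7 CPM in library 3, and Rps2 highest at 158.5 CPM in library 4. Rps2 was also highest at 158.4 CPM in library 1 of the Gcn2+/+ Gars mutants and at 147 CPM in library 1 of the Gcn2+/- Gars mutants. Rpl29 was highest there at 75.3 CPM, and Rpl13 lowest at 62.9 CPM in library 3 of the Gcn2-/- Gars mutants. Of sums with copies, Rpl13 stood at 184 CPM and Rpsa at 331 CPM in library 1 of Gcn2+/+ mice with wild-type Gars. Rpl13 at 204 CPM and Rpl14 at 168 CPM were highest in library 3 of Gcn2+/- mice with wild-type Gars, Rpl14 was lowest at 148 CPM in library 3 of the Gcn2+/+ Gars mutants, and Rpl29 highest at 78.6 CPM in library 1 of the Gcn2+/- Gars mutants.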

How the results depend on the processing

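Of 264 counts and medians recomputed without 1 library, 246 stayed within 1.5 times the reported count or within 0.05 log2 of the reported median, and of 372 under other settings 345 did. In the difference of the Gars effect between Gcn2+/- and Gcn2+/+ mice, leaving out 1 library gave 0 to 4 members called upward and 0 to 6 downward. It gave 0 to 1 downward for the Gars effect in Gcn2+/+ mice, 0 to 1 upward in Gcn2+/- mice and 0 to 2 downward for 1 lost Gcn2 copy with wild-type Gars. Under DESeq2 the difference had 1 member downward, the Gars effect 1 downward in Gcn2+/+ and 1 upward in Gcn2+/- mice, and 1 lost copy with wild-type Gars 1 upward and 2 downward. In the difference 0 members were called upward with no filter, in the groups alone, with the GC slope, with the slope and summed copies, or without the 5 libraries highest in nerve root genes, and with summed copies 1 upward and 2 downward. Of all genes 0.0374% were called with no filter, 3.97% with summed copies and 0% under the 4 other settings, so those counts of 0 are no result about the members. The causes were not tested.

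With the title number as a replicate block, 0 members were called upward in the difference, as were 0 of all 17409 genes (Rpl22l1 1.07, Rpl27a 0.32), and 1, Rpl10-ps3, was called downward for Gcn2 loss with mutant Gars (background 0.569%), whose median became -0.091. The median for the difference of Gcn2-/- from Gcn2+/+ mice became -0.15. Of 32 pairs of libraries from different groups with the same title number, 21 had correlated deviations above 0.1 (mean r 0.19). Of 207 other pairs 63 did (mean r -0.03). Libraries with the same number were thus more alike on average, which the main test does not account for. Not all such pairs were alike, and the number alone was not taken as a pairing. What these libraries share was not tested.

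With the GC slope the median log2 change of the members became -0.038 for the Gars effect in Gcn2+/+ mice (-0.030 with summed copies too), 0.049 (0.065) in Gcn2+/- mice, 0.096 (0.095) for their difference, -0.060 (-0.067) for 1 lost copy with wild-type Gars and 0.019 with mutant Gars. Without the 5 libraries it was -0.011 for the difference and 0.025 for 1 lost copy with mutant Gars.

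Signs turned for named members mainly with summed copies (in parentheses with the slope too). Rpl5 became -0.064 (-0.067) for the Gars effect in Gcn2+/+ mice, 0.062 (0.064) for its difference in Gcn2-/- mice, and 0.024 (0.024) for Gcn2 loss with mutant Gars. Rpl27a became -0.12 for the Gars effect in Gcn2+/- mice, -0.32 for the difference from Gcn2+/+ mice, 0.17 for 1 lost copy with wild-type Gars and -0.15 (-0.011) with mutant Gars. Rps13 became -0.012 (-0.041) for the Gars effect in Gcn2-/- mice, and Rpl13 -0.070 for its difference from Gcn2+/+ mice. Only with both settings, Rpl10a became 0.042 for the difference of Gcn2+/- from Gcn2+/+ mice and -0.036 for 1 lost copy with wild-type Gars. With the slope, Rpl22l1 became -0.020 (-0.027) for 1 lost copy with mutant Gars. Rplp0 turned to 0.12 for the Gars effect in Gcn2+/+ mice with summed copies. Precision is that of 3 to 5 libraries a group.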
